A study of Homo sapiens with 35 samples.

Results

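The major histocompatibility region of human chromosome 6 was described as it appears in 1 pooled list of ATAC-seq peaks from blood progenitors. A peak was a member when its summit lay on chromosome 6 between positions 29600000 and 33200000 of GRCh38. This gave 670 peaks of the 308732 in the list, 346 in the class I part (from the region's start to the end of MICB at 31511124), 185 in the class III part (from there to the end of NOTCH4 at 32224067) and 139 in the class II part (from there to the region's end). The choice rests on position alone and uses no measured value.

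ATAC-seq uses a transposase that inserts adapters into accessible DNA, so a peak marks a stretch of open chromatin. The study made libraries from blood progenitors grown out of the established H1 line of human embryonic stem cells and asked how ectopic MYC, switched on by doxycycline, changes them. The 35 libraries described here were 12 of a line titled doxee17 with doxycycline (DOX) and 11 of it without (UT), all in batch 1, and 12 of h1 without doxycycline (UT) in batch 2, taken on days 10, 12, 14, 16, 18 and 20 of differentiation, with 1 to 3 libraries for each line, treatment and day. The design text counts 44 libraries. The peak list carries no library names, so it gives 1 value per peak with no replicates, no treated-against-untreated value and no test, and every comparison that follows is a description of 1 list.

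The region holds the genes by which cells show peptides to T cells. Class I molecules (HLA-B, HLA-C and relatives) sit on nearly all nucleated cells and present peptides that the proteasome cuts and the TAP transporter carries into the endoplasmic reticulum. Class II molecules (HLA-DR, HLA-DQ, HLA-DP) are made mainly by B cells, dendritic cells, macrophages and some progenitors, and are switched on by the coactivator CIITA acting on promoters with X1, X2 and Y boxes; the class III part between them packs complement, tumour necrosis factor, heat shock and many household genes.

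The promoters of the class I chains are shown first because the peaks over these related genes ranged widely in height. Each line gives the 190 bases before the annotated start (RefSeq, GRCh38.p14), 5′ to 3′ on the gene's strand, with capitals for the CCAAT box read on either strand (CCAAT or ATTGG), the cyclic AMP response element core TGACG and the kappa B site GGGGATTCC.
HLA-C (chr6:31272093-31272282, minus strand): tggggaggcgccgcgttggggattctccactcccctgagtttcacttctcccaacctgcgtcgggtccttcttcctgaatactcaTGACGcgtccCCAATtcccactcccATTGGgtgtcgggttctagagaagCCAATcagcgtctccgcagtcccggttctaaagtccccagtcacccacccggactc
HLA-B (chr6:31357180-31357369, minus strand): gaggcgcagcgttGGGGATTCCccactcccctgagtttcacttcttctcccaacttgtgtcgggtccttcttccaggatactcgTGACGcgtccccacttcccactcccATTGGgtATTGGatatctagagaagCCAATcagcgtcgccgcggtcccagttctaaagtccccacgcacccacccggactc
HLA-F (chr6:29723244-29723433, plus strand): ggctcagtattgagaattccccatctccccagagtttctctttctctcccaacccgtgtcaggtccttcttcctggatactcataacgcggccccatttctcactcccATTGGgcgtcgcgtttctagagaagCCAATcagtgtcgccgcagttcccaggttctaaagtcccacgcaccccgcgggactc
HLA-G (chr6:29827635-29827824, plus strand): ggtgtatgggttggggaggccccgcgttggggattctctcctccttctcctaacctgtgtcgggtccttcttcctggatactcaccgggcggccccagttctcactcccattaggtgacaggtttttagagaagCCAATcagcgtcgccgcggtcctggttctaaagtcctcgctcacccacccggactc
All 4 stretches hold CCAAT within bases 52 to 57 before the start, HLA-C and HLA-B also hold TGACG, and an exact GGGGATTCC stands in HLA-B. The peaks over them had deposited folds of 104 at HLA-C, 55.4 at HLA-B, 17.1 at HLA-F and 2.05 at HLA-G. The summit of the HLA-G peak lay 614 bases after the start, outside the stretch shown.

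The class II promoters are shown as 65-base stretches lined up on ATTGG, the Y box core, with capitals for ATTGG, the X1 box core AGCAAC and the X2 box spelling TGATGATG. The last of these spellings was added after the sequences had been seen.
HLA-DRB1 (chr6:32589875-32589939, minus strand): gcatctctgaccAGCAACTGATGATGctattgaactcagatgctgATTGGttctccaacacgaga
HLA-DRB5 (chr6:32530358-32530422, minus strand): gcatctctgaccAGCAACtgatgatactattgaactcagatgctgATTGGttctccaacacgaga
HLA-DQA1 (chr6:32637293-32637357, plus strand): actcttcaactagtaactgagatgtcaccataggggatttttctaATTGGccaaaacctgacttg
HLA-DQB1 (chr6:32666726-32666790, minus strand): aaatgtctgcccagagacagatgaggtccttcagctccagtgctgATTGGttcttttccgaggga
HLA-DQA2 (chr6:32741278-32741342, plus strand): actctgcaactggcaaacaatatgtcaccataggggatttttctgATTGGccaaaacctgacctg
HLA-DQB2 (chr6:32763601-32763665, minus strand): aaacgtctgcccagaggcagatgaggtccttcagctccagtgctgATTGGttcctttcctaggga
HLA-DPB1 (chr6:33075846-33075910, plus strand): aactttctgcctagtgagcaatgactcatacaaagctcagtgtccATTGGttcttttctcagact
HLA-DMA (chr6:32953157-32953221, minus strand): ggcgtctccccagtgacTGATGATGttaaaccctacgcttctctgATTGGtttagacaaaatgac
HLA-DOA (chr6:33009639-33009703, minus strand): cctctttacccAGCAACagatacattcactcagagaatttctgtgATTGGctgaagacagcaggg
HLA-DOB (chr6:32817081-32817145, minus strand): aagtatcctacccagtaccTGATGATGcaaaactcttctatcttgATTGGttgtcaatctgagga
Folds over these promoters were 27.6 at HLA-DRB1, 10.5 at HLA-DRB5, 4.10 at HLA-DQA1, 12.4 at HLA-DQB1, 26.2 at HLA-DPB1, 122 at HLA-DMA, 12.9 at HLA-DOA and 4.20 at HLA-DOB, and no peak lay over HLA-DQA2 or HLA-DQB2. Each stretch holds ATTGG because it was lined up on it, so the presence of ATTGG cannot be set against these folds. HLA-DPA1 and HLA-DMB held no ATTGG on the gene's strand in the window used. For HLA-DPA1 that was the window of its higher-coordinate start, and its other start was not searched.

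The heat shock pair and GPSM3 are shown over 250 bases before their starts. The pair is shown because its copies are similar in letters, and GPSM3 because its promoter carried the highest peak of the region. Capitals mark ATTGG or CCAAT and, in the pair, the heat shock element GAANNTTC.
HSPA1A (chr6:31815293-31815542, plus strand): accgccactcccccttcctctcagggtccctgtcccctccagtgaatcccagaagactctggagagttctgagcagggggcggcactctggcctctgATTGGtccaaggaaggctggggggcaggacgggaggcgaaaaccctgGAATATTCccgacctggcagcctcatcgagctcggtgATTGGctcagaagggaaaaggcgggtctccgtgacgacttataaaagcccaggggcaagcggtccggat
HSPA1B (chr6:31827488-31827737, plus strand): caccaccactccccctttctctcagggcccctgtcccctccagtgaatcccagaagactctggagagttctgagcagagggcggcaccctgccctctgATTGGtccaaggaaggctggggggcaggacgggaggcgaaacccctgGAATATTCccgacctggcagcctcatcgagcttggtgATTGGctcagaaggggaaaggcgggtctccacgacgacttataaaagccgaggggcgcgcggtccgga
GPSM3 (chr6:32195524-32195773, minus strand): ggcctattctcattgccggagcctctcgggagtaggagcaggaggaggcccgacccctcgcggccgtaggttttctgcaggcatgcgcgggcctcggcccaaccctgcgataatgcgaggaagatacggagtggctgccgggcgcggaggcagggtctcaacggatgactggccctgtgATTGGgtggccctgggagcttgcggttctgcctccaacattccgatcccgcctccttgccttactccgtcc
The deposited fold was 83.9 over HSPA1A, 255 over HSPA1B and 333 over GPSM3.

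Peaks were denser in the region than on the rest of the chromosome. The region held 186 peaks per Mb over 3.60 Mb, against 107 per Mb on the rest of chromosome 6 and 100 per Mb over all chromosomes. Class III was the densest part with 259 peaks per Mb, followed by class I with 181 and class II with 142. Peaks covered 19.2% of the region (16.9% of class I, 37.2% of class III and 10.6% of class II), against 7.48% of the rest of chromosome 6. The density followed coding genes unevenly: class III had 82.8 coding genes per Mb and 3.14 peaks per coding gene, class I had 27.2 genes per Mb and 6.65 peaks per gene, and class II had 22.5 genes per Mb and 6.32 peaks per gene, while the rest of chromosome 6 had 5.48 genes per Mb and 19.5 peaks per gene.

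Member peaks were also higher. The fold is the authors' deposited enrichment at the summit over a background that was the same for the whole genome. The median fold was 4.36 in the region (interquartile range 2.25 to 16.1, range 1.44 to 333) and 3.46 over all peaks. Of the 670 peaks, 145 (21.6%) were above 20-fold, against 11.2% of the 18520 peaks of the whole chromosome, and 40 (5.97%) were above 100-fold, against 2.11% of all peaks. Class III held 19 of the 40, class I 16 and class II 5, which is 10.3%, 4.62% and 3.60% of each part's peaks. At the other end, 122 members (18.2%) were under 2-fold, against 21.1% of all peaks. Counting error at the summit alone, as a 95% Poisson interval on the fragments that the fold stands for, ran from 1.21 to 1.70 for the weakest member and from 330 to 337 for the strongest.

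**Figure D1:**
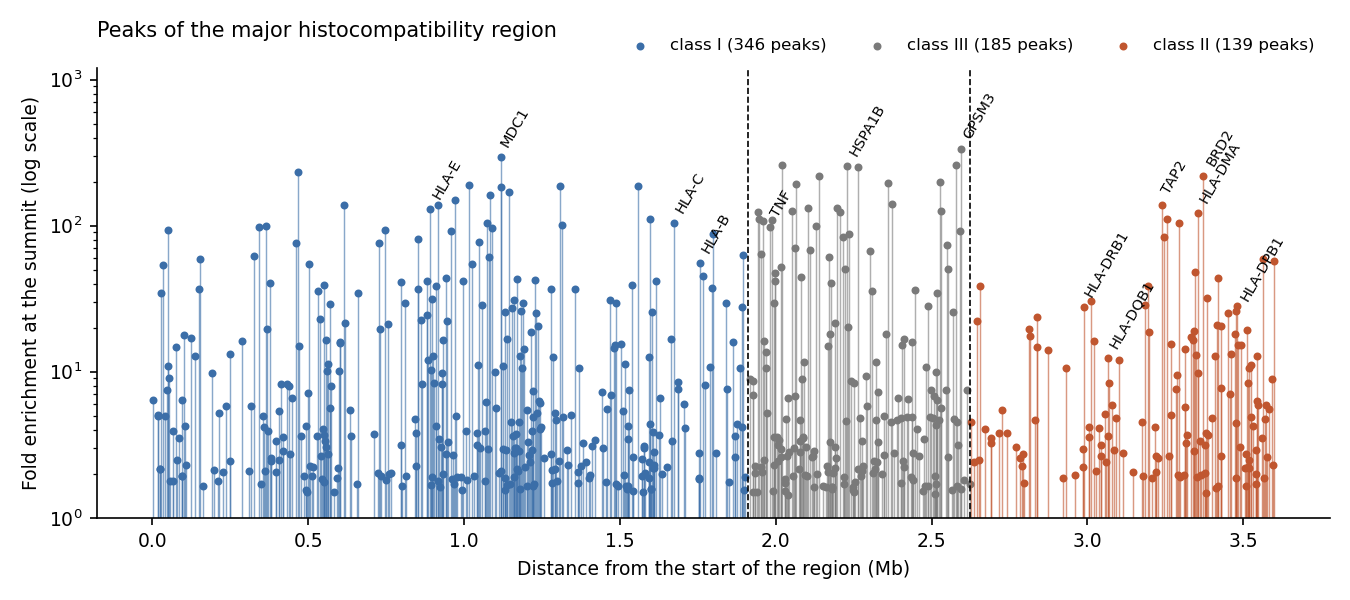
Deposited fold at the summit (log axis) of each of the 670 member peaks against distance from the start of the region in Mb, coloured by part, with dashed lines at the borders between class I, class III and class II. Class III in the middle is the most crowded and holds the highest peak, at GPSM3 (333-fold), while the HLA class II genes to the right lie mostly under 30-fold.

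A peak overlapped the promoter window (250 bases before to 50 after a RefSeq start, at least 1 bp) of 103 of the 119 coding genes of the region with such a window, or 86.6%, against 83.4% of all 15841 coding genes with one. The region's share of open promoters was thus near that of the genome, as was the share with a promoter peak above 100-fold: 41 of 119 (34.5%) against 34.0%. The parts differed: 50 of 53 promoters (94.3%) had a peak in class III, 37 of 46 (80.4%) in class I and 16 of 20 (80.0%) in class II. Median promoter folds, counting a promoter without a peak as 0, were 91.2 in class III, 59.2 in class I and 16 in class II, beside 61.8 over all coding genes. Of the 85 promoter peaks 16 reached the promoter windows of more than 1 gene, 34 genes in all. A promoter's value is the fold of the highest peak that touches its window, and the summit of a wide peak can lie outside it: 58.8% of the 119 promoters had the summit of a peak inside the window.

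The list of class I heavy chains had a peak at all 6 promoters with a window (83.4% of all coding genes do), with a median of 59.2-fold. The list includes the stress ligands MICA and MICB, described below, so its median is not a value for the HLA genes alone. HLA-E has no window in the table used; a peak of 130-fold (chr6:30488978-30490758) lay over its lower-coordinate end. In descending order the values reported were 130 for HLA-E, a ligand of inhibitory receptors on natural killer cells, 104 for HLA-C, 55.4 for HLA-B, 17.1 for HLA-F and 2.05 for HLA-G, the class I molecule of the placenta. The counting intervals of HLA-C (102 to 107), HLA-B (53.9 to 56.9), HLA-F (16.3 to 18) and HLA-G (1.77 to 2.36) did not overlap. The HLA-G peak (chr6:29827643-29828687) lay over 1 of its 3 annotated starts, with no peak within 1 kb of either outer end of the gene. Its summit lay 614 bases after that start and outside the window, so the fold at the start is not given. HLA-B and HLA-C promoter windows were 90.9% identical over 296 aligned bases, and their folds differed by 1.89 times. The intervals cover counting error only. Read placement and the HLA haplotype of the line against the reference were not tested for these class I genes.

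The stress ligands MICA and MICB, which engage the receptor NKG2D on killer cells, had promoter values of 87.7 and 63.1. Both values belong to wide peaks, 5519 and 5751 bp, whose summits lay 3729 and 4159 bases before the annotated starts. The fold at those starts themselves is not given by the list.

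The peptide supply genes of class I lie inside the class II part and were among its highest promoters. TAP2, a subunit of the peptide transporter, had 140-fold. TAP1, its partner, and PSMB9, an immunoproteasome subunit transcribed the other way, shared 1 peak of 111-fold (chr6:32852540-32855013). PSMB8, another immunoproteasome subunit, had 84.2-fold, and TAPBP (tapasin), just beyond the region's end, had 45.2-fold. All 5 of 5 had a peak and their median was 111-fold, beside 61.8 over all coding genes.

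Class II chains were lower. Of 8 promoters with a window 6 had a peak, with a median of 11.5-fold, none reached the all-gene median, and none was above 100-fold. HLA-DRA, which has no window, had a peak of 14.7-fold over its lower-coordinate end (chr6:32439360-32440147). HLA-DPA1 had 28.2-fold at the higher-coordinate of its 2 annotated starts and 18.2-fold at the other, HLA-DRB1 27.6-fold (interval 26.5 to 28.7), HLA-DPB1 26.2-fold (25.2 to 27.2), HLA-DQB1 12.4-fold (11.7 to 13.1), HLA-DRB5 10.5-fold (9.88 to 11.2) and HLA-DQA1 4.10-fold (3.71 to 4.53). HLA-DRB1 and HLA-DPB1, neighbours in this order, have overlapping counting intervals, and HLA-DQB1 and HLA-DRB5 do not. Peak widths ran from 363 bp at HLA-DQA1, 641 bp at HLA-DQB1, 735 bp at HLA-DRB1 and 799 bp at HLA-DRB5 to 1196 bp at HLA-DPB1 and 2325 bp at HLA-DPA1, beside 2639 bp at HLA-C. No peak lay at the promoter or at either end of HLA-DQA2 or HLA-DQB2, the little-expressed copies of the DQ pair.

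The class II loading genes, all 4 with a peak and with a median of 16-fold, spanned a wide range. HLA-DMA, a subunit of the exchange factor that swaps peptides on class II molecules, had 122-fold (interval 120 to 125) in a peak of 918 bp. HLA-DMB, its partner subunit, had 19.1-fold. The DO chains, which restrain that exchange, had 12.9-fold at HLA-DOA and 4.20-fold at HLA-DOB. HLA-DMA was thus the only gene of the class II chain and loading lists above 100-fold, and the counting error of its value is far smaller than its distance to the other 3 loading genes.

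**Figure D2:**
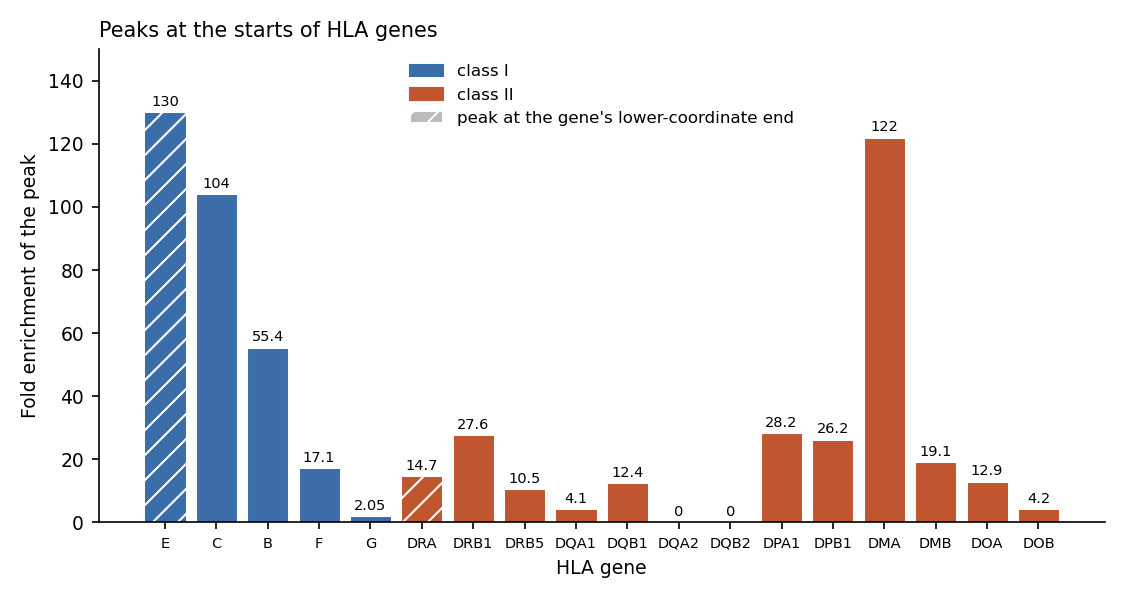
Deposited fold of the promoter peak (linear axis from 0) of 5 HLA class I and 13 HLA class II genes; hatched bars are genes without a promoter window, shown with the peak at the lower-coordinate end. HLA-E and HLA-C lie at 104 or above, HLA-DMA is at 122, and every other class II gene is at 28.2 or below.

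Genes of the same pathway elsewhere in the genome had a promoter peak in 16 of 16 cases with a window, where 83.4% of all coding genes have one, and above 100-fold in 9, where 34.0% of all are. Their median was 155-fold, beside 61.8 over all coding genes. CANX (calnexin), a chaperone of the class I chain, had 284-fold, NFYA, a subunit of the factor that binds the Y box, 259-fold, and CREB1, which binds X2-like elements, 254-fold. CIITA, the class II coactivator, has no window; its lower-coordinate end had a 1.51-fold peak. Inside the gene, peaks of 38.7-fold and 42.1-fold had summits 5.05 kb and 52.7 kb from that end, and a 99.1-fold peak at its other end also reached the gene DEXI. NLRC5, the class I counterpart of CIITA, had 49.6-fold at its lower-coordinate end.

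The marker lists give the setting of these values. Over all coding genes 83.4% had a promoter peak and the median was 61.8-fold. All 9 progenitor markers with a window had a promoter peak (median 59.8-fold, led by LYL1 at 191, ITGA2B at 113 and TAL1 at 105). The progenitor median was thus near that of all coding genes, and the share of the antigen-presenting list below (83.3%) was near theirs. Of 6 antigen-presenting cell markers with a window 5 had one (median 16.6-fold), led by CSF1R, the macrophage growth factor receptor, at 105-fold, CD79A at 35.1 and CD1C at 16.8, and XCR1 had none. Of 5 markers of other lineages with a window, NANOG, DSG3, ALB, FLG and AHSG, none had one. Among those without a window, COL3A1 and DCN had no peak within 1 kb of either outer end. CD3E had 2.48-fold at its lower-coordinate end and 75.0-fold at its higher-coordinate end. A peak at an outer end need not lie at the gene's start. A pooled list does not tell in how many cells or libraries a promoter was open, and the share of antigen-presenting cells in the class II values was not tested.

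The cytokine cluster of class III was covered by wide peaks. TNF (tumour necrosis factor) and LTB (lymphotoxin beta) shared a peak of 97.5-fold that ran for 9522 bp (chr6:31574012-31583533), with its summit 484 bp from an end of LTB. The summit lay 5477 bases from the start of TNF. LTA, the neighbour on the other side of TNF, had a 5.19-fold peak at its starts in the window table and a 107-fold peak (chr6:31556955-31561169) over its lower-coordinate end. LST1, a leukocyte transcript, had 110-fold in a peak that also reached an end of NCR3, an activating receptor of natural killer cells, and AIF1, a macrophage protein, had 52.3-fold. The median over 5 promoters was 97.5-fold, which is the value of the peak shared by TNF and LTB. Its summit lay outside the windows of both genes, so the fold at their starts is not given. The 5 windows held a median of 5 CpG dinucleotides, beside 23 over all coding genes.

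The widest member peaks also lay in class III. A peak of 9917 bp with 99.4-fold (chr6:31722789-31732705) covered the promoters of MPIG6B, an inhibitory receptor of megakaryocytes and platelets, and DDAH2, and a peak of 9834 bp with 68.6-fold covered those of LY6G6F and LY6G6D. The next widest were the TNF and LTB peak, 8848 bp at PBX2, a partner of HOX proteins (91.2-fold), and 8525 bp at BRD2, a reader of acetylated histones (220-fold).

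Complement genes and their neighbours were modest, with a median of 26.2-fold over 4 promoters. C2 shared a 66.7-fold peak with EHMT2, a histone methyltransferase, and ZBTB12. Its summit lay 175 bases from the start of ZBTB12, 1262 and 4478 from the starts of C2 and 4563 from that of EHMT2. The fold at the C2 and EHMT2 starts is therefore not given. CFB (factor B) had 5.0-fold. CYP21A2, the adrenal steroid 21-hydroxylase, had 16-fold and TNXB, tenascin X, 36.4-fold at its inner start, with the summit 2223 bases away, and 6.87-fold at its outer start. The C4A and C4B genes had no peak within 1 kb of the lower-coordinate end and 4.79-fold and 4.93-fold peaks at the other.

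The C4 segment stands as a tandem duplicate in the reference, with the copies 32738 bp apart. Of 7 peaks in the first copy 6 had a match in the second, which held 9. Matched folds differed by a median of 1.04 times (range 1.02 to 1.12), and 3 of the 6 matched summits lay within 10 bp of each other after the shift. The highest matched pair had 15.3-fold and 16-fold. How the authors placed reads that fit both copies is not given in the sources used here, so values of either copy are uncertain.

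**Figure D3:**
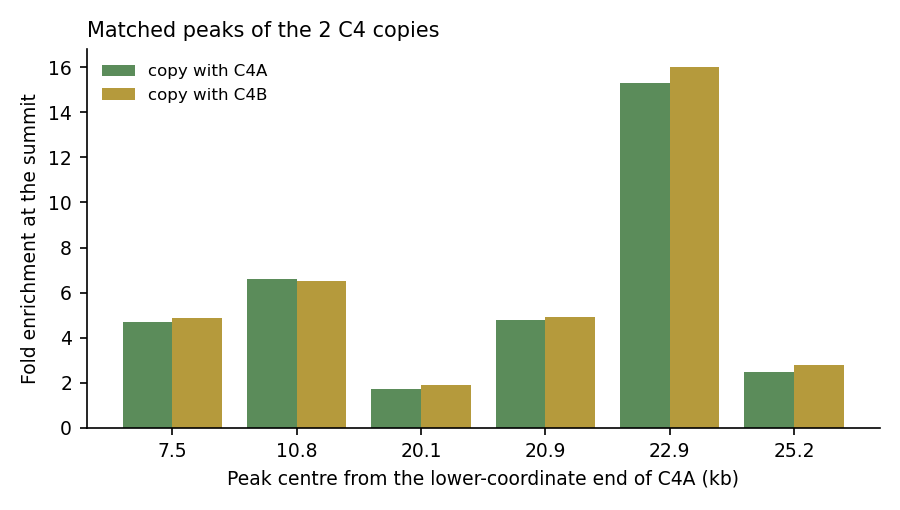
Deposited fold at the summit (linear axis from 0) of the 6 matched peaks in the copy holding C4A and the copy holding C4B, ordered by distance of the peak's centre from the lower-coordinate end of C4A in kb. The bars of each pair are nearly level, with ratios between 1.02 and 1.12.

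Promoter pairs of similar sequence differed more in fold. The sequence identity of the C4 copies was not computed and their matched peaks were not limited to promoters, so the comparison is not like for like. HSPA1A and HSPA1B, which encode the same inducible chaperone, were 92.6% identical over 299 aligned bases, yet HSPA1B had 255-fold (interval 252 to 258) and HSPA1A 83.9-fold (82.0 to 85.7), a ratio of 3.04. HSPA1A shares its peak with HSPA1L, the testis-enriched relative transcribed the other way. HLA-DRB1 and HLA-DRB5 were 92.2% identical over 256 bases with a ratio of 2.62. HLA-DQA1 and HLA-DQA2 were 86.5% identical, and HLA-DQB1 and HLA-DQB2 87.8%, with a peak at the first of each pair alone. Read placement and the HLA haplotype of the line against the reference were not tested for any of these pairs.

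Growth and housekeeping genes carried most of the high promoters. All 35 of 35 with a window had a peak (83.4% of all coding genes do), with a median of 149-fold and a range of 50.3 to 297, and 27 were above 100-fold (34.0% of all coding genes are). Without RXRB, whose start lies just beyond the region's end, these counts were 34 of 34 and 26, of the region's 41 promoters above 100-fold. The 10 highest member peaks began with GPSM3 (333-fold), a regulator of G protein signalling in leukocytes, MDC1 (297), a DNA damage mediator, and PRRC2A (259). Next came the shared promoter of RNF5 and AGPAT1 (259), HSPA1B (255), NEU1 (252), the lysosomal sialidase, and PPP1R11 (233), a phosphatase inhibitor. The last were BRD2 (220), a peak over the separate promoters of CLIC1 and MSH5 (217), and ATF6B (199), an endoplasmic reticulum stress factor. All 10 had their summit within 0.449 kb of an annotated start or an outer end of a coding gene, and 7 of them lay in class III. The summit of the 217-fold peak lay 0.126 kb from MSH5 and outside the CLIC1 window. The fold at the CLIC1 start is therefore not given, though CLIC1 counts among the growth promoters above 100-fold through this peak.

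Tissue-restricted genes were lower. Among 9 skin and mucosa genes with a window 4 had a peak. No peak lay over SFTA2, MUCL3, MUC22, C6orf15 or PSORS1C2, CDSN (corneodesmosin) had 1.66-fold and PSORS1C1 1.96-fold, while the growth-linked neighbours CCHCR1 and TCF19 in the same list shared a peak of 186-fold. Among 22 other tissue-restricted genes 14 had a peak, with a median of 3.52-fold. MOG (myelin), ZFP57 (imprinting factor), TRIM31, MUCL3, LY6G5B, NOTCH4, TSBP1 and BTNL2 had none, and AGER, the lung-rich receptor for glycation products, had 3.16-fold. The highest values of this list, 99.4 for MPIG6B and 68.6 for LY6G6D and LY6G6F, belong to the wide peaks described above, whose summits lay 6882, 4009 and 4473 bases from these starts, so the fold at the starts is not given. POU5F1, the pluripotency factor, had 1.93-fold at its higher-coordinate end.

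**Figure D4:**
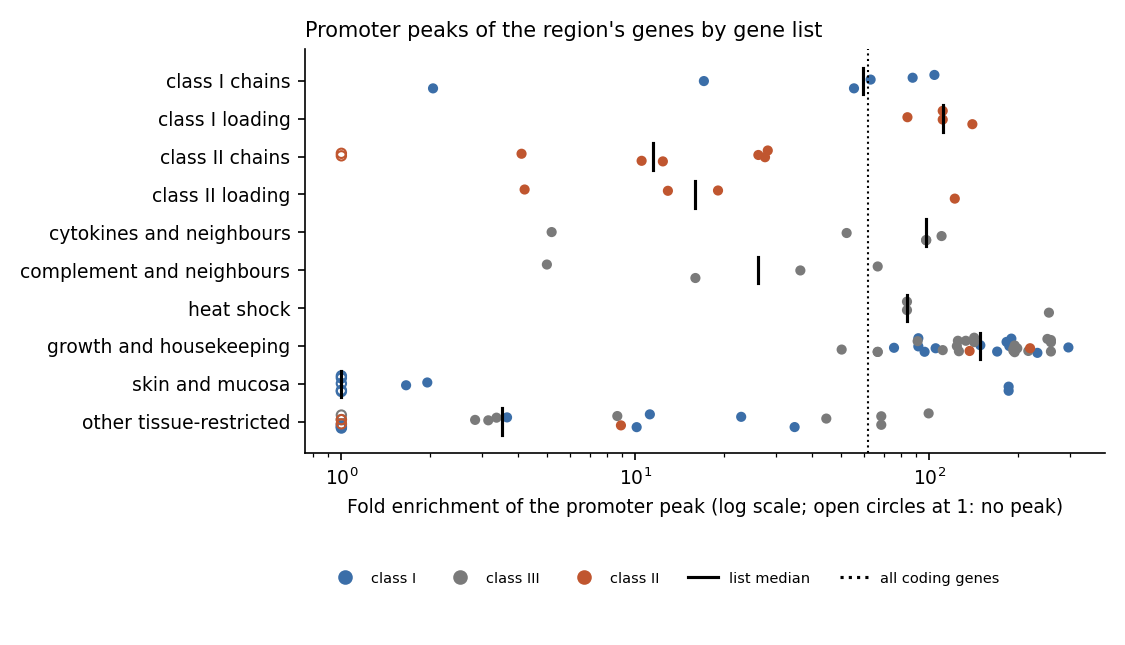
Deposited fold of the promoter peak (log axis) of each list gene with a promoter window in the region, by gene list and coloured by part; bars are list medians, open circles at 1 are promoters without a peak and the dotted line is the median of all coding genes (61.8). Growth genes lie at 50.3 or above, class II chains at 28.2 or below, and skin genes are mostly without a peak.

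Promoter peaks followed CpG content in the region as they did in the genome. Of promoters with under 5 CpG dinucleotides in the 300 bases, 19 of 29 (65.5%) had a peak with a median of 4.10-fold; with 5 to 14, 26 of 31 (83.9%) and 36.4-fold; with 15 or more, 58 of 59 (98.3%) and 111-fold. Over all coding genes the shares were 34.0%, 70.0% and 97.5%, with medians of 0, 10.8 and 93.4. Spearman's correlation of CpG count and fold, across genes that share peaks with neighbours, was 0.61 over the 119 genes and 0.51 over all. The low-CpG promoters of the region were thus more often under a peak than those of the genome. The 19 with a peak included 7 class II genes, HLA-DRB1, HLA-DRB5, HLA-DQA1, HLA-DPB1, HLA-DMA, HLA-DMB and HLA-DOB. HLA-DMA, with 3 CpG, had 122-fold, and LST1, with 2, had 110-fold; they were the only 2 of the 29 above 100-fold. ZFP57 was the one promoter with 15 or more CpG and no peak.

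**Figure D5:**
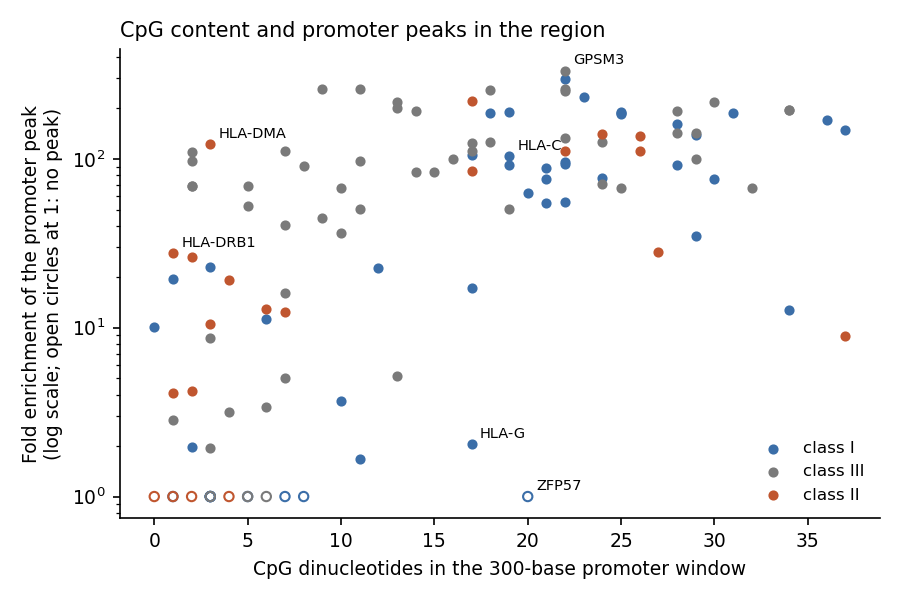
Deposited fold of the promoter peak (log axis) against the number of CpG dinucleotides in the 300-base promoter window for the 119 coding genes of the region and RXRB at its border, coloured by part; open circles at 1 have no peak. Most HLA class II genes lie at low CpG counts, with HLA-DMA above the others, and ZFP57 stands alone at 20 CpG without a peak.

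Motif letters were counted on both strands of the same 300-base windows, 1 per gene, so other starts such as the second of HLA-DPA1 were not searched. CCAAT stood in 36.3% of all coding promoters and 43.7% of the region's, in 6 of 6 class I chains, 7 of 8 class II chains, 4 of 4 class II loading genes and 3 of 3 heat shock genes. The longer form TGATTGG, which contains the box and was added after the sequences had been seen, stood in 9.01% of all promoters and 20.2% of the region's, in 6 of 6 class I chains, 5 of 8 class II chains and 3 of 4 loading genes. TGATGATG stood in 0.556% of all promoters and in HLA-DRB1, HLA-DMA, HLA-DMB and HLA-DOB (3.36% of the region's), whose folds ran from 4.20 to 122. AGCAAC stood in 12.5% of all promoters and 12.6% of the region's, in 3 of 8 class II chains and 2 of 4 loading genes. GAANNTTC stood in 5.44% of all promoters, 12.6% of the region's and 3 of 3 heat shock genes. These 3 are not independent. The windows of HSPA1A and HSPA1L overlap and hold the same GAANNTTC and CCAAT bases, and the HSPA1B window is 92.6% identical to that of HSPA1A. The E-box CACGTG, which MYC and other factors bind, stood in 8.90% of all promoters, 5.04% of the region's and 0 of 20 class II part promoters. A match is a match of letters, not a measured binding site.

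Most members were distal, away from coding gene starts and ends. Of the 670 peaks 510 (76.1%) had a summit over 1 kb from every annotated start and both outer ends of every coding gene, against 92.1% of all peaks. Their median fold was 3.69 (3.29 over all such peaks), and the other 160 had a median of 16.5 (19.3). Of the 510, 71 (13.9%) were above 20-fold, against 8.74% of all distal peaks, with 45 in class I, 12 in class III and 14 in class II. Distal members above 100-fold numbered 4 (0.784%), against 0.446% of all distal peaks. By place, 26.4% of member summits lay in a coding gene body, 15.1% in another gene, 34.6% between genes and 23.9% within 1 kb of an annotated start or an outer end of a coding gene. Exons and introns were not told apart.

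The highest distal peak (161-fold, chr6:30680944-30689042) lay in PPP1R18 and covers an annotated inner start of that gene. The next was 139-fold in the long noncoding RNA gene LINC02569, 22.3 kb from HLA-E. A 111-fold peak stood at the start of the noncoding gene HCG27, 27.3 kb from POU5F1, and a 104-fold peak at the start of LOC100294145, 34.8 kb from PSMB9. Others among the 10 highest were 93.9-fold 7.06 kb from MOG, 87.2-fold at the noncoding gene SNHG32, 80.9-fold 7.03 kb from LOC105375012, 64.5-fold in NFKBIL1 and 61.9-fold over HCG4B and the pseudogene HLA-K. Of the 10 highest distal peaks 4 overlapped the promoter window of a long noncoding RNA gene, as did 9 of the 71 above 20-fold.

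The longest stretch without a peak was 50.9 kb (chr6:30260585-30311457). It starts inside HLA-L, just beyond that pseudogene's 34.7-fold peak, and holds part of HCG18 but not its start. The next were 47.8 kb between HLA-DRA and HLA-DRB5, reaching into the latter (chr6:32474066-32521886), and 42.9 kb between HLA-C and HLA-B (chr6:31308963-31351859). The last were 36.9 kb in class I at MICF and HCG4P7 and 33.3 kb that starts inside MICA. None of these 5 lay in class III. How many reads could be placed uniquely in these stretches was not tested.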

How the data were processed

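The authors deposited 1 pooled peak list; columns of other per-sample values numbered 0. Trim Galore 0.6.5, Bowtie2 2.2.8, Picard 2.2.4 and GRCh38.p13 are named per the submitters' processing notes, and MACS 2.1.0 and GENCODE 36 in the deposited peak names. Order, duplicate filters, read shift and the libraries pooled are not given in the sources used here. Each peak carries the authors' score (not used further), a fold (a linear ratio at the summit), and a −log10 p-value, as deposited. Fold and p are matched by 1 genome-wide background of 93.5, with fold = (pileup + 1) / (background + 1), and intervals are 95% Poisson on that pileup, for counting error only. A constant background corrects neither copy number nor mappability. Depth per library is unknown. Positions are 1-based.

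Genes, starts and promoter sequences are RefSeq, GRCh38.p14; all 161 entries of 14 lists matched, STK19 as WHR1 and DPCR1 as MUCL3, and 13 coding genes of the region had no window. Of several starts the window with the highest fold was used. Scripts used Python 3.11.15, numpy 2.4.6, pandas 2.3.3, scipy 1.17.1, Biopython 1.88 and matplotlib 3.10.9 and were tested on simulated data. Named were list genes of the region and, of lists outside it, the 3 highest and those without a peak. Also named were the 10 highest, 5 widest and 10 highest distal peaks, the 5 longest gaps and gene copies of similar sequence. CIITA, NLRC5, CD3E and the low-CpG genes were named after their values were seen. Members and lists were chosen with earlier results of these data known. A gene of the class I list and the peaks placed by it are not reported here.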

Additional observations from a re-analysis of the deposited data

How the results depend on the processing

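With the more significant 50% of all peaks the region's density was 108 per Mb (186 with all), while 40 peaks above 100-fold remained and 80.7% of promoters had a peak. This filter kept 387 of the region's 670 peaks (57.8%), beside 50% of all peaks. The 108 per Mb is therefore not comparable with the densities of other chromosome parts given above for all peaks. Ending class III before HLA-DRA put its density at 222 per Mb (259). Asking for the summit inside the 300-base window left 58.8% of promoters with a peak (86.6%); a summit within 1 kb of the start gave 79.8% and a peak over the whole window 82.4%. Distal peaks above 20-fold numbered 68 at over 2.5 kb (71 at over 1 kb). No paired analysis was possible because the list names no library, and for the same reason no replicate could be left out. Depth limits weak peaks most: a median member of 4.37-fold has a counting interval of 3.96 to 4.81.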

Other observations

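Noncoding promoters were open more often in the region than in the genome: 31 of 40 long noncoding RNA genes with a window (77.5%) had a peak, against 46.8% of all. IER3-AS1 had 170-fold, DDX39B-AS1 124-fold and HCG18, which shares its peak with HCG17, 76.2-fold. HCP5, a transcript within the class I part, had 15.9-fold and HCG9 40.3-fold. These values were chosen after they were seen, and several of the peaks are shared with coding promoters.

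HLA pseudogenes were unequal. HLA-K had a peak of 61.9-fold, HLA-L 34.7-fold, HLA-H 16.3-fold, HLA-DPB2 19.2-fold and HLA-DPA2 15.2-fold, while HLA-P, HLA-T, HLA-U, HLA-N, HLA-S, HLA-X and HLA-DRB9 had none.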
